A study of Homo sapiens with 20 samples.

Results

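The Kruppel-like factors (KLFs) were followed across a count table of cultured human pericytes. The members were the rows of that table whose gene name was KLF2, KLF3, KLF4, KLF5, KLF6, KLF7, KLF9, KLF10, KLF11 or KLF13. They made up 10 of the 58676 genes in the table, and all 10 were among the 12111 genes with enough counts to be tested. The cells were 1 immortalized wild-type pericyte line (CL 05008-CLTH, from Celther), grown in DMEM with 10% fetal bovine serum in every group. Control cells received neither cytokine. The eNAMPT group received recombinant human eNAMPT, the extracellular form of nicotinamide phosphoribosyltransferase, at 500 ng/mL. The PDGF-BB group received recombinant human PDGF-BB, a growth factor that acts on mural cells, at 20 ng/mL. The combined group received both at these doses, and all groups were compared at 4 hours. Each group had 5 libraries that the labels call biological replicates. Nothing further is said of how the replicates were separated, so the p-values here measure the spread among these samples of 1 line.

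KLFs are transcription factors with zinc fingers at the carboxyl end that bind GC-rich elements and CACCC motifs, the same kind of site that SP factors bind. Some mainly activate transcription and others recruit corepressors: KLF3 works through CtBP proteins, and KLF9, KLF10, KLF11 and KLF13 through SIN3A. In vessels, KLF2 and KLF4 are known for quiescence programmes under the ERK5 and MEF2 pathway, KLF4 and KLF5 for switching mural cells between contractile and growing states, KLF6 for the response to vascular injury, and KLF10 and KLF11 as early genes of the TGF-beta pathway.

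The sequences shown first are those upstream of KLF6 and KLF11, since KLFs bind the GC-rich elements that both contain. Averaged over the presence of eNAMPT, KLF6 was called higher and KLF11 lower with PDGF-BB. The KLF11 call lay just under the threshold (edgeR adjusted p = 0.0487) and held in only 4 of 20 fits that left out 1 library. The sequences come from RefSeq (GRCh38.p14), which had entries for 8 of the 10 members. KLF3 and KLF10 had none. Each is read 5′ to 3′ on the gene's strand and is the stretch of the 250 bases before the RefSeq start that lies outside the annotated exons of the gene. Capitals mark each GC box (GGGCGG, or CCGCCC where it lies on the other strand). The KLF6 stretch, chr10:3785282-3785459 on the minus strand, has 178 bases and 1 GC box. The KLF11 stretch, chr2:10043971-10044174 on the plus strand, has 204 bases and 5 GC boxes, and lies in an intron of the longer KLF11 transcripts.
KLF6: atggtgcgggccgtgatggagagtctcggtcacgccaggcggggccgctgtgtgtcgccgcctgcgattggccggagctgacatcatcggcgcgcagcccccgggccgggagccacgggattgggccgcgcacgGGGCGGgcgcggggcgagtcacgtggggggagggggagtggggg
KLF11: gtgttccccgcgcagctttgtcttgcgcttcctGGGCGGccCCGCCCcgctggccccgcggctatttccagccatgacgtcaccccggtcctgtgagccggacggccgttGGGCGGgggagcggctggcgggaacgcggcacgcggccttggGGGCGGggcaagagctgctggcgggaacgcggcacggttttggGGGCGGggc

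Over the whole 250 bases, the KLF6 window held 2 GC boxes and this KLF11 window held 6. The other KLF11 window, before a different start, held 2, as the KLF6 window did. Which KLF11 start these cells use was not tested. Across all members there were 13 such windows, several for KLF5, KLF7 and KLF11, and 8 of the 13 held a GC box on either strand. Of all 35116 promoter windows of that length in the table, 42.6% held one. The CACCC box was in 6 of the 13, against 54.7% of all windows. The KLF11 window with 6 GC boxes also held the cyclic AMP response element TGACGTCA, 176 to 169 bases before the start. It overlapped a CACCC box by 2 bases. Of all windows 1.65% held this element. One KLF7 window held an SRF CArG box, 62 to 53 bases before its start, which 1.16% of all windows held. A TATA box (TATAAA) was in 1 window of KLF5, and in 10.7% of all. The AP-1 site (TGANTCA), the EGR site (GCGTGGGCG), the ETS core (CCGGAAGT) and the NF-kB site were in none of the 13, while 6.57%, 0.720%, 3.42% and 5.21% of all windows held them. These matches describe letters in a window and were not tested for binding.

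The libraries held between 2894878 and 4011066 gene counts. ERCC and SIRV spike-in RNA made up 1.57 to 2.91% of the counts. Of 11 pericyte markers, all but DES were tested genes, and their summed level ran from 348 to 471 CPM (counts scaled to a library total of 1000000) over the 20 libraries. All 4 epithelial and all 4 neural or glial markers were below the count filter. Only TEK of the 6 endothelial markers and only CD14 of the 5 leukocyte markers passed it. All 5 fibroblast markers passed, and their summed level ran from 3782 to 5170 CPM, above that of the pericyte markers. They were led by the collagen genes COL1A1 and COL1A2, which mural cells in culture also express. PDGFRA, another fibroblast marker, was at 97.8 CPM in control, beside 133 CPM for the pericyte marker PDGFRB. These markers alone do not separate pericytes from fibroblasts.

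In control cells KLF6 was the most abundant member per length, at 22.2 ± 1.74 CPM per kb of exonic length (SD, n = 5). KLF2 followed at 13.0 ± 1.47 and KLF10 at 7.28 ± 1.59 CPM per kb. These 3 did not overlap in the 5 control libraries. Below KLF10 came KLF3 at 6.84, KLF13 at 5.28, KLF7 at 5.00, KLF4 at 3.18, KLF9 at 2.34, KLF11 at 1.77 and KLF5 at 1.75 CPM per kb. From KLF10 downward, each neighbour in this order overlapped the next, so adjacent places were not resolved. The division by length assumes reads along the whole transcript, which the labels do not state. On plain CPM only 4 members kept their place in the order, and KLF13, KLF7, KLF3 and KLF10 then stood above KLF2.

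**Figure D1:**
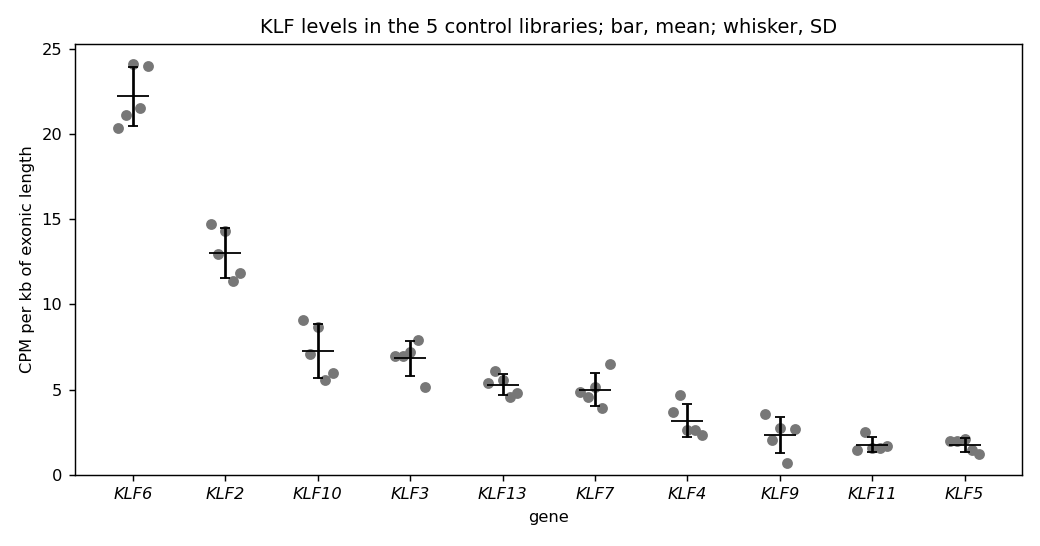
Level of each KLF in the 5 control libraries, in CPM per kb of exonic length, ordered by mean. Points are libraries, the horizontal bar is the mean and the whisker the SD. KLF6 (22.2) and KLF2 (13.0) stand apart from the other 8, whose neighbours overlap.

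The other KLF genes were mostly near or below the limit of the test. KLF16 averaged 49.4 CPM and KLF12 averaged 18.9 CPM over the 20 libraries and were tested. KLF1, KLF8, KLF14, KLF15 and KLF17 each averaged under 1 CPM, and KLF18 had 0 counts in all libraries. The depth behind the members differed widely. KLF6 had a mean of 506 counts per library, whereas KLF11 had 20.7 and KLF5 26.8. The spread between libraries of 1 group, as a coefficient of variation (SD as a percent of the mean), was 8.75% for KLF6 where counting error alone gives 4.45%. It was 35.5% for KLF9 and 34.3% for KLF4, where counting error gives 15.3% and 15.5%. For KLF11 the figures were close, 26.4% against 22.0%. For KLF3 they were 18.9% against 8.74%. Every member varied more between libraries of a group than counting error gives. KLF4 and KLF9 had the largest spread but were not alone in exceeding it.

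Averaged over the presence of eNAMPT, KLF6 and KLF10 were higher and KLF11 was lower with PDGF-BB, as the tests after these values show. KLF6, a widely expressed factor induced early after tissue injury, was measured at 125, 129.5, 148, 132 and 147 CPM in control replicates 1 to 5. In the eNAMPT libraries it was at 137, 119.5, 129, 131 and 151 CPM. PDGF-BB libraries had 153, 162, 155, 172 and 163 CPM. Every PDGF-BB library was above every control and eNAMPT library, although the gap was small: the highest eNAMPT library was at 151 CPM and the lowest PDGF-BB library at 153 CPM. With both cytokines KLF6 was at 185, 176, 158, 214 and 167 CPM, again above all 10 libraries without PDGF-BB. The group means were 136 ± 10.7 CPM in control, 133 ± 11.8 CPM with eNAMPT, 161 ± 7.61 CPM with PDGF-BB and 180.2 ± 21.6 CPM with both (SD, n = 5). A lower or higher level in bulk RNA can come from the number of cells that express a gene or from the amount per cell, which cannot be told apart.

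KLF10, a TGF-beta-inducible early gene that represses transcription, was lower in abundance and behaved alike in direction. Control libraries had 36.4, 28.4, 34.8, 22.2 and 23.9 CPM. The eNAMPT libraries had 23.4, 27.3, 32.4, 26.1 and 26.4 CPM. Control and eNAMPT libraries overlapped throughout. PDGF-BB libraries had 33.7, 39.3, 46.4, 39.7 and 35.4 CPM. With both cytokines the values were 35.96, 50.7, 33.8, 43.8 and 49.3 CPM. All 10 libraries with PDGF-BB were above the mean of those without it (28.1 CPM), and 6 of the 10 were above the highest of them. The libraries with both cytokines did not overlap those with eNAMPT alone, whereas PDGF-BB and control overlapped.

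KLF11, the close relative of KLF10 that also recruits SIN3A, moved the other way. It was at 6.73, 11.6, 7.22, 7.21 and 7.85 CPM in control and at 10.1, 5.39, 8.72, 7.01 and 5.88 CPM with eNAMPT. With PDGF-BB it was at 3.25, 6.89, 5.67, 5.28 and 3.41 CPM and with both cytokines at 3.49, 5.96, 3.90, 5.18 and 4.27 CPM. All 10 libraries with PDGF-BB were below the mean of those without, and 7 of the 10 were below the lowest of them. The libraries with both cytokines all lay below the control libraries. The means were 7.77 ± 1.90 CPM without and 4.73 ± 1.24 CPM with PDGF-BB (SD, n = 10). For KLF6 the corresponding means were 135 ± 10.7 and 171 ± 18.3 CPM, and for KLF10 28.1 ± 4.89 and 40.8 ± 6.37 CPM.

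**Figure D2:**
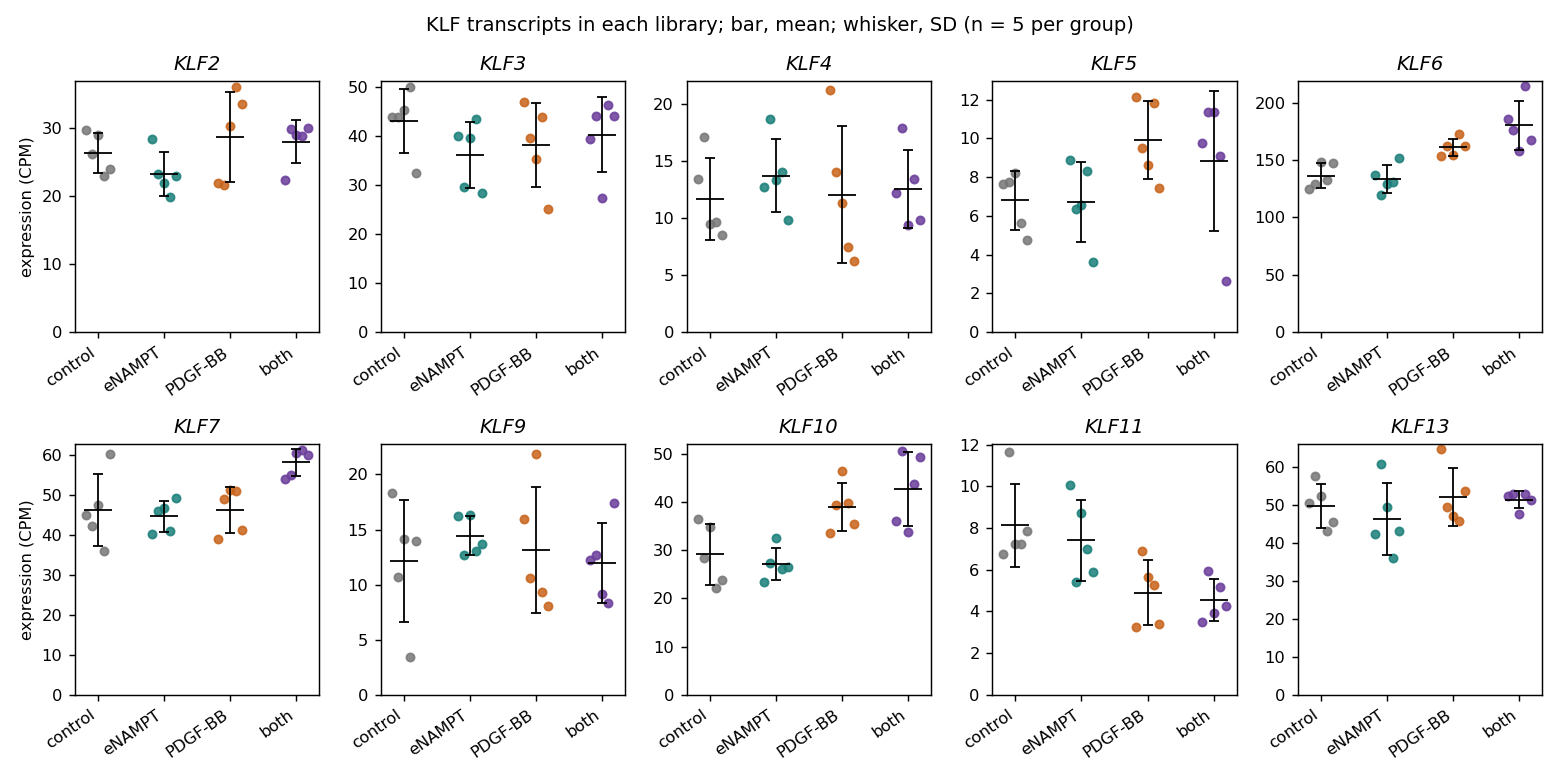
CPM of each KLF in every library of the 4 groups (both, eNAMPT with PDGF-BB). Points are libraries, the bar is the mean and the whisker the SD of 5 libraries. KLF6 is above 153 CPM in each of the 10 libraries with PDGF-BB and reaches at most 151.5 CPM without it. KLF11 reaches at most 6.89 CPM with PDGF-BB, although libraries without it go down to 5.39 CPM. KLF7 has its highest mean where both cytokines were given.

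The average of the PDGF-BB effects with and without eNAMPT sets 10 libraries against 10. In this comparison 3 of the 10 members passed edgeR's quasi-likelihood test at an adjusted p under 0.05 (Benjamini-Hochberg over all 12111 genes), with 2 higher and 1 lower. Of all tested genes 3.96% passed, with 2.96% higher and 1.01% lower. KLF6 rose, at a log2 change of 0.34 (SE 0.06, adjusted p = 0.000135). KLF10 rose by a log2 change of 0.54 (SE 0.10, adjusted p = 0.000501). KLF11 fell, its log2 change being -0.70 (SE 0.21, adjusted p = 0.0487) that lay just under the threshold. The median log2 fold change of the 10 members was 0.15, against -0.01 for all tested genes. The KLF11 call rested on a mean of 20.7 counts per library. It passed in only 4 of the 20 fits that left out 1 library (eNAMPT replicate 2 or 5, PDGF-BB replicate 2 or combined replicate 2), where its log2 fold change ran from -0.78 to -0.62 and its adjusted p from 0.0352 to 0.126 over all 20, and it did not pass with limma-voom (adjusted p = 0.0547) or without the filter on low counts (adjusted p = 0.124). When libraries were scaled to the spike-ins, none of the 3 passed, at log2 fold changes of 0.29 for KLF6 (adjusted p = 0.554), 0.49 for KLF10 (adjusted p = 0.120) and -0.76 for KLF11 (adjusted p = 0.244), with the median of all genes at -0.07. Of all 12111 genes 98 were then called higher and 31 lower, where the fit above gave 358 and 122.

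PDGF-BB alone against control gave 0 calls among the 10 members, where 1.21% of all tested genes passed, 1.05% higher and 0.165% lower. DESeq2 and limma-voom also gave 0 members, where 148 and 127 of all 12111 genes were higher and 35 and 22 lower. In edgeR 3 members had an unadjusted p under 0.05, as did 9.64% of all genes. These were, as log2 fold changes, KLF6 at 0.24 (SE 0.08, adjusted p = 0.218), KLF10 at 0.42 (SE 0.15, adjusted p = 0.209) and KLF11 at -0.72 (SE 0.30, adjusted p = 0.369). In separate libraries, both cytokines against eNAMPT alone gave 2 members higher and 0 lower, against 1.53% of all tested genes, of which 1.18% were higher and 0.347% lower. Here KLF6 rose by a log2 change of 0.43 (SE 0.08, adjusted p = 0.00114) and KLF10 by 0.66 (SE 0.15, adjusted p = 0.00703). KLF11 was at -0.69 (SE 0.30, adjusted p = 0.374), close in size to its value without eNAMPT. These calls for KLF6 and KLF10 held in all 10 fits that left out 1 library and were lost with spike-in scaling, where KLF6 was at 0.32 (adjusted p = 0.851) and KLF10 at 0.52 (adjusted p = 0.613), with the median of all genes at -0.14. With that scaling 24 of all 12111 genes were called higher and 7 lower, where the fit above gave 143 and 42.

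Both cytokines against control gave 2 members higher, KLF6 and KLF10, and 0 lower. Of all tested genes 1.98% passed, with 1.63% higher and 0.347% lower. The combined libraries are the same ones set against eNAMPT above, and they are also part of the averaged comparison. The calls in these comparisons are therefore not independent. KLF6 rose by a log2 change of 0.40 (SE 0.08, adjusted p = 0.00253) and KLF10 by 0.56 (SE 0.15, adjusted p = 0.0269). KLF11 was at -0.81 (SE 0.30, adjusted p = 0.218), with no overlap between the groups. The KLF6 call held in all 10 fits that left out 1 library. The KLF10 call held in 4 of the 10, and was lost without control replicate 2, 4 or 5 and without combined replicate 2, 4 or 5, at adjusted p between 0.0609 and 0.130. With spike-in scaling neither passed, at 0.30 for KLF6 (adjusted p = 0.862) and 0.43 for KLF10 (adjusted p = 0.765), with the median of all genes at -0.14. That scaling left 40 of all 12111 genes higher and 10 lower, where the fit above gave 198 and 42. In the authors' deposited table the same pair had adjusted p under 0.05 in this comparison, with KLF6 at a log2 fold change of 0.36 (adjusted p = 0.000234) and KLF10 at 0.40 (adjusted p = 0.0259), signed so that positive is higher with the cytokines. The authors' deposited table also had both genes under 0.05 for both cytokines against eNAMPT, and 0 members in the other 3 of its comparisons read here. It gives no adjusted p for KLF11 in PDGF-BB against control. How many of all genes were under 0.05 in that table was not counted, so these member counts have no background beside them.

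**Figure D3:**
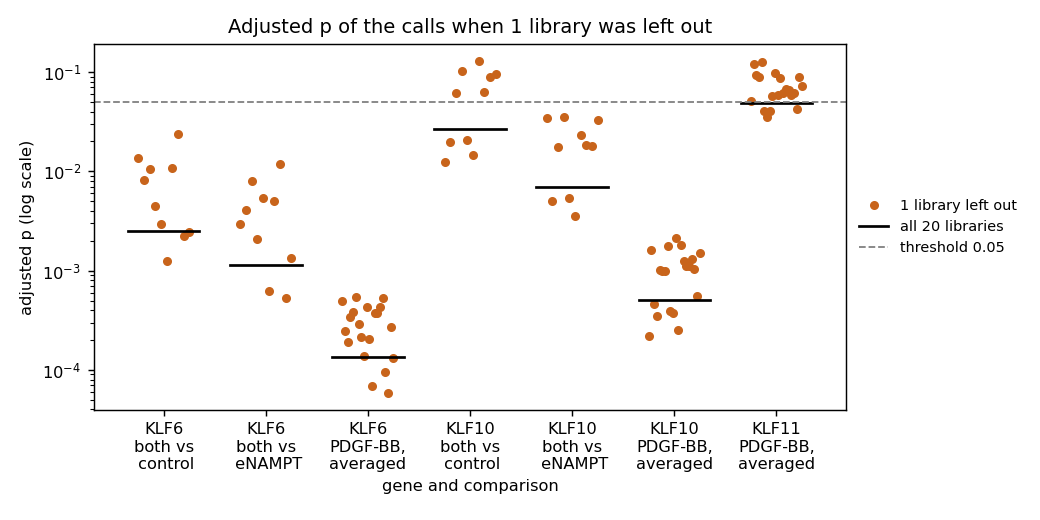
Adjusted p of the 7 member calls, on a log scale, with all 20 libraries (black line) and with 1 library left out (points). The KLF6 points stay under the dashed threshold of 0.05 in its 3 comparisons, whereas 6 of 10 points for KLF10 with both cytokines against control and 16 of 20 points for KLF11 lie above it.

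KLF7, a widely expressed family member studied mainly in neurons and fat cells, differed from these in its order of groups. It was at 54.1, 55.0, 60.5, 61.4 and 60.1 CPM with both cytokines. With PDGF-BB alone it was at 38.97, 49.1, 51.3, 50.9 and 41.3 CPM, with eNAMPT alone at 40.2, 45.98, 46.9, 41.1 and 49.3 CPM and in control at 45.0, 42.3, 47.6, 36.1 and 60.4 CPM. The combined libraries lay above every library of either single cytokine, but control replicate 5 fell among them. The means were 58.2 ± 3.39 CPM with both, 46.3 ± 5.77 CPM with PDGF-BB, 44.7 ± 3.88 CPM with eNAMPT and 46.3 ± 8.98 CPM in control. The log2 fold change of both cytokines was 0.33 (SE 0.12, adjusted p = 0.9998) against PDGF-BB, 0.38 (SE 0.12, adjusted p = 0.103) against eNAMPT and 0.34 (SE 0.12, adjusted p = 0.184) against control, so none passed. Without control replicate 5 the last of these was 0.45 (adjusted p = 0.0306).

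The interaction asks whether the eNAMPT effect differed with and without PDGF-BB. In edgeR 0 of the 10 members passed it, and 0% of all tested genes did. DESeq2 and limma-voom also gave 0 members, and 0 of all 12111 genes. In edgeR KLF7 was the only member with an unadjusted p under 0.05, where 3.35% of all genes had one. Its difference between effects was 0.37 on the log2 scale (unadjusted p = 0.0331, adjusted p = 0.999). The interaction of KLF6 was 0.20 with a 95% interval of -0.04 to 0.44, that of KLF10 0.23 (-0.19 to 0.65) and that of KLF11 0.03 (-0.84 to 0.90). For KLF11 this interval spans differences as large as its PDGF-BB effect.

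The factors tied to quiescence and to mural cell state gave no call in any of the 8 comparisons. KLF2, a flow-responsive factor of quiescent vessels, was at 29.7, 26.2, 28.9, 23.0 and 23.9 CPM in control and 21.8, 21.5, 30.2, 36.02 and 33.5 CPM with PDGF-BB. The PDGF-BB libraries split, with 3 above and 2 below all control libraries. With eNAMPT KLF2 was at 28.4, 23.1, 21.8, 19.8 and 22.9 CPM and with both cytokines at 22.3, 29.8, 28.9, 28.7 and 29.9 CPM. Its averaged PDGF-BB effect was 0.20 (SE 0.11, adjusted p = 0.414), with a 95% interval of -0.03 to 0.42. KLF4, which represses contractile genes in mural cells, had a mean of 11.6 ± 3.59 CPM in control, 13.7 ± 3.22 CPM with eNAMPT, 12.1 ± 6.01 CPM with PDGF-BB and 12.6 ± 3.40 CPM with both. The PDGF-BB libraries of KLF4 spanned 6.20 to 21.3 CPM and so covered the whole range of the control libraries. The 95% interval of its averaged PDGF-BB effect was -0.40 to 0.34.

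KLF5, which promotes growth of mural cells, was at 7.65, 7.75, 8.21, 5.61 and 4.78 CPM in control and 8.87, 6.34, 6.54, 8.29 and 3.59 CPM with eNAMPT. It was at 12.1, 9.48, 8.64, 11.8 and 7.44 CPM with PDGF-BB and 9.78, 11.4, 11.4, 9.06 and 2.63 CPM with both cytokines. Of the 10 libraries with PDGF-BB, 9 were above the mean of those without and 7 above the highest of them, while combined replicate 5 was the lowest of all 20 libraries. Its averaged PDGF-BB effect was 0.47 (SE 0.21), with an unadjusted p of 0.0312 and an adjusted p of 0.260 in edgeR. This difference was not resolved. KLF5 had 26.8 counts per library, and its spread within groups was 29.7% where counting error alone gives 19.3%. Replicate 5 was its lowest library in all 4 groups.

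The other repressors showed no call. KLF3, the CtBP-recruiting member, ranged over 32.4 to 49.9 CPM in control, 28.4 to 43.4 CPM with eNAMPT, 25.1 to 46.9 CPM with PDGF-BB and 27.3 to 46.3 CPM with both. KLF9, a glucocorticoid-responsive factor, ranged over 3.47 to 18.4 CPM in control, 12.7 to 16.4 CPM with eNAMPT, 8.07 to 21.9 CPM with PDGF-BB and 8.28 to 17.4 CPM with both. Its lowest control value was in replicate 4, and the next was 10.7 CPM in replicate 2. KLF13, known for control of chemokine expression in lymphocytes, ranged over 43.0 to 57.5 CPM in control, 36.02 to 60.9 CPM with eNAMPT, 45.6 to 64.7 CPM with PDGF-BB and 47.5 to 52.8 CPM with both. The groups of each gene overlapped. The 95% intervals of the averaged PDGF-BB effect were -0.23 to 0.21 for KLF3, -0.47 to 0.33 for KLF9 and -0.07 to 0.28 for KLF13, so those of KLF3 and KLF13 were narrow beside that of KLF9.

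eNAMPT on its own gave 0 calls among the 10 members, where 0.0743% of all tested genes passed. In edgeR 0 members reached an unadjusted p under 0.05, which 3.61% of all genes did. DESeq2 and limma-voom likewise gave 0 members in this comparison, where 13 and 9 of all 12111 genes were higher and 1 and 0 lower. Log2 fold changes ran from -0.25 for KLF3 to 0.27 for KLF9, with a median of -0.07. For KLF6, the member measured most precisely, the change was -0.03 with a 95% interval of -0.20 to 0.14. Adding eNAMPT to PDGF-BB also gave 0 calls among the members in edgeR, DESeq2 and limma-voom. Of all genes 0.0578% passed in edgeR, while 11 were higher with DESeq2 and 9 with limma-voom, and 0 lower in each. In edgeR 1 member, KLF7, reached an unadjusted p under 0.05, as 3.4% of all genes did. Here KLF7 had the largest value, given above, and KLF6 followed at a log2 change of 0.16 (SE 0.08, adjusted p = 0.9998). Averaged over both backgrounds the eNAMPT effect gave 0 calls among the members, where 0.157% of all genes passed. There edgeR gave 0 members with an unadjusted p under 0.05 against 3.63% of all genes. DESeq2 and limma-voom gave 0 members as well, where 22 and 17 of all genes were higher and 0 lower. With so few calls across the whole table, 0 of 10 members was near the background.

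**Figure D4:**
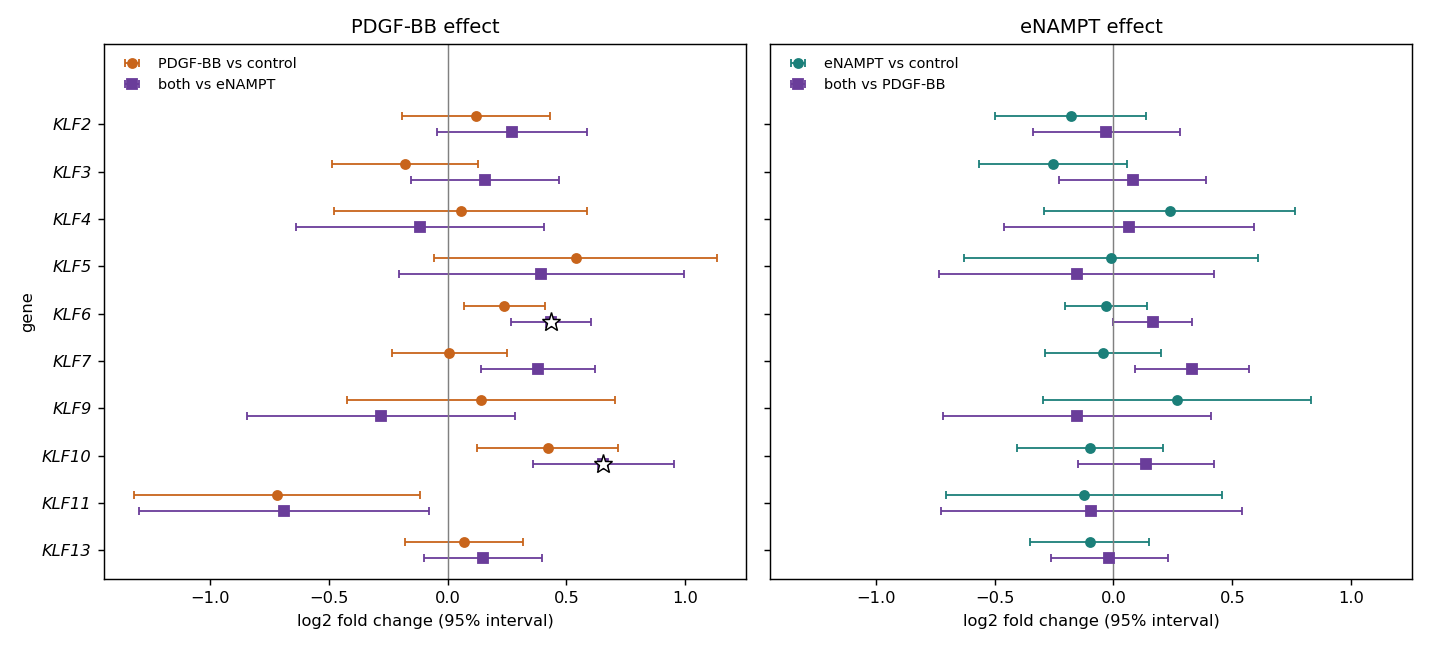
Log2 fold change of each KLF with its 95% interval, for PDGF-BB given without and with eNAMPT (left) and for eNAMPT given without and with PDGF-BB (right). Stars mark an adjusted p under 0.05, which KLF6 (0.43) and KLF10 (0.66) reached for both cytokines against eNAMPT; KLF11 is below 0 in both PDGF-BB comparisons.

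The genes that act with the family were described by lists, chosen with earlier results of these data known, in the averaged PDGF-BB comparison, where 2.96% of all tested genes were higher and 1.01% lower. A single call in 11 or 12 genes was near that background, so SRF and SIN3A are given as genes and not as results about their lists. Of 17 other KLF and SP genes 6 were tested and 0 passed. SP1, an activator that competes for GC boxes, had the smallest p there, at a log2 change of -0.23 (SE 0.08, adjusted p = 0.120). Of 11 kinases and factors upstream of KLF2 and KLF4, all tested, 1 was higher and 0 lower: SRF, which drives serum-response and contractile genes, rose from 80.3 ± 9.44 CPM in control to 95.2 ± 14.4 CPM with PDGF-BB and 101 ± 18.1 CPM with both, with an averaged log2 change of 0.28 (SE 0.08, adjusted p = 0.0372). Of 12 corepressors, ligases and other partners that bind KLF proteins, all tested, 1 was lower and 0 higher. This was SIN3A, the corepressor scaffold used by KLF10 and KLF11, at 60.8 ± 3.97 CPM in control, 64.2 ± 6.72 CPM with eNAMPT, 52.9 ± 7.33 CPM with PDGF-BB and 46.6 ± 6.54 CPM with both. It fell, with an averaged log2 change of -0.33 (SE 0.08, adjusted p = 0.00727).

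More of the vascular genes known as targets of KLF2, KLF4, KLF5 or KLF6 passed. Of 17 in the list 15 were tested, and 9 were higher and 0 lower in the averaged PDGF-BB comparison, against 3.96% of all tested genes in either direction. The median log2 fold change of the 15 was 0.51, against -0.01 for all genes. PDGFA, which encodes a PDGF ligand chain, rose from 117 ± 12.2 CPM in control to 225 ± 22.6 CPM with PDGF-BB, an averaged log2 fold change of 1.02 (SE 0.06). CDKN1A, a cell cycle inhibitor that KLF4 and KLF6 can activate, rose by a log2 change of 0.72 (SE 0.10, adjusted p = 8.86e-07). Only CCL2, a monocyte chemokine, and VCAM1, a leukocyte adhesion molecule, also passed with eNAMPT alone, where 0 of the 10 KLF members did. CCL2 was at 166 ± 34.5 CPM in control, 334 ± 62.0 CPM with eNAMPT, 357 ± 61.3 CPM with PDGF-BB and 603 ± 63.5 CPM with both. VCAM1 was at 14.6 ± 5.33 CPM, 42.4 ± 4.76 CPM, 41.2 ± 6.06 CPM and 57.8 ± 10.1 CPM in the same order. Of 9 contractile genes, 8 were tested and 3 were higher with 0 lower: SRF again, CNN1 (calponin) at a log2 change of 0.45 (SE 0.11, adjusted p = 0.00875) and SMTN (smoothelin) at 0.23 (SE 0.06, adjusted p = 0.0238). How far KLF levels bear on these genes was not tested.

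Other transcripts followed the members that passed across the 20 libraries. For KLF6 the most similar were HBEGF, an EGF receptor ligand (Pearson r of log2 CPM 0.89), INHBA, an activin subunit (0.88), and MAT2A, which makes S-adenosylmethionine (0.88). HBEGF was at 105 ± 15.4 CPM in control and 249 ± 41.3 CPM with both cytokines, a wider range than that of KLF6. For KLF10 they were DUSP6, an ERK phosphatase (0.85), NAMPT (0.84) and MYC (0.84). NAMPT, which encodes the protein that was added in its extracellular form, was at 64.5 ± 6.48 CPM in control, 66.6 ± 4.61 CPM with eNAMPT and 82.6 ± 8.77 CPM with PDGF-BB. For KLF11 they were ST3GAL3, a sialyltransferase (0.82), SLC38A2, an amino acid transporter (0.77), and NBR1, an autophagy receptor (0.75). Among libraries of the same group, after removal of the group means, r was 0.56 for HBEGF, 0.51 for DUSP6 and 0.70 for ST3GAL3. These genes were picked as the highest of 9642 or 9643, the points share their treatment groups, and the correlations are descriptions only.

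Genes that overlap the members, and annotated KLF pseudogenes, had few counts. KLF3-AS1, on the strand opposite KLF3, had 5 counts over all libraries, the antisense gene AC104794.4 at KLF11 had 6, and KLF7-IT1 within KLF7 had 40. Of 8 annotated KLF pseudogenes 7 had 0 counts and KLF3P1 had 66, beside 2618 for KLF3. Whether reads were counted by strand is not stated in the labels, nor how reads that match several genes were handled. These counts therefore do not show how many reads were shared or lost. The members that passed had no overlapping gene with more than the 6 counts at KLF11.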

How the data were processed

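Per the submitters' processing notes, the build was GRCh38 and the tools were FastQC (version 0.11.7), STAR (version 2.6.1a), featureCounts (version 1.6.4) and DESeq2 (version 1.18.1), listed without their roles. Their settings are not given in the sources used here. The deposited table holds raw counts per gene and library, together with the authors' log2 fold changes and adjusted p-values, which served only where named. A further deposited table of counts, higher in 152335 cells and lower in 0, served as an alternative. Gene identifiers, chromosomes and start positions matched GENCODE release 29 for all 58676 genes, and exonic lengths came from it.

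The 92 ERCC and 7 SIRV rows were left out of library sizes and tests. Counts passed edgeR 4.0.16 (R 4.3.3): filterByExpr at its defaults, TMM scaling, and 1 quasi-likelihood fit (glmQLFit, glmQLFTest, two-sided) with a mean per group over all 20 libraries, with Benjamini-Hochberg adjustment over 12111 genes and a threshold of 0.05. CPM values are after TMM. The SE is the absolute log2 fold change divided by the square root of F, and intervals are at 95%. With 2894878 to 4011066 counts per library, precision is limited for members near 20 counts. The procedure was tested on simulated data. 8 comparisons were made: each pair but eNAMPT against PDGF-BB, the interaction and the averaged effects.

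All 10 members are named; from each of 6 lists up to 4 genes that passed, by smallest p, or else the gene with the smallest p; and for each member that passed the 3 genes most like it (Pearson r, mean log2 CPM of at least 3, prior count of 2). Members and lists were chosen with earlier results of these data known. The result of 1 list is not reported here. Alternatives were DESeq2 1.42.0, limma-voom (limma 3.58.1), other scalings, filters and thresholds, the other table, a replicate block and leaving out each library. Replicate numbers recur in all groups, but the labels do not tie them to a shared culture or day, so the block served as an alternative only.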

Additional observations from a re-analysis of the deposited data

Results flagged for a closer look

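In 40 sets of 5 libraries (10 members in 4 groups), 3 had 1 library farther from the others than Dixon's 95% critical value allows, and chance alone gives this in about 1 in 20 such sets. KLF2 with both cytokines was at 22.3 CPM in replicate 1, while the other 4 libraries lay between 28.7 and 29.9 CPM. KLF5 with both cytokines was at 2.63 CPM in replicate 5, while the others lay between 9.06 and 11.4 CPM. KLF11 in control was at 11.6 CPM in replicate 2, while the others lay between 6.73 and 7.85 CPM. Without that control library the averaged PDGF-BB effect on KLF11 was -0.62 on the log2 scale, with an adjusted p of 0.126 in edgeR.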

How the results depend on the processing

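Depth limits KLF11 and KLF5, with means of 20.7 and 26.8 counts per library. No member that passed changed direction under any alternative run, and 93 of 1870 alternative values changed sign where the value passed neither before nor after. Of the alternative values, 34 lost a call and 3 gained one. Spike-in scaling gave 0 members for both cytokines against control, for both against eNAMPT and for PDGF-BB averaged over eNAMPT, where the usual scaling gave 2, 2 and 3. Calls over the whole table of 12111 tested genes fell as well. They went from 198 to 40 higher and from 42 to 10 lower in the first comparison. In the second they went from 143 to 24 and from 42 to 7, and in the third from 358 to 98 and from 122 to 31. For both cytokines against control, fitting only the groups compared left 1 member, as did a threshold of 0.01, and leaving out a library gave 1 to 2; without control replicate 5 the members were KLF6 and KLF7. With the replicate block, PDGF-BB against control gave 1 member where the fit without it gave 0: KLF6, at a log2 fold change of 0.24 (adjusted p = 0.0391, and between 0.0391 and 0.999 over the alternatives that kept all libraries). The block also moved KLF7 past the threshold for both against eNAMPT (0.38, adjusted p = 0.0283). Over the whole table it moved the calls from 127 to 299 higher and from 20 to 78 lower for PDGF-BB against control. Libraries with the same number correlated at 0.00138 to 0.176, with 12 of 30 pairs over 0.1, a median of 0.0901 against -0.0257 between different numbers, and 13 of 20 libraries closest to their own number. This is a hint in the data that numbers share something, which the labels do not name; since not every pair was over 0.1, the block was kept as an alternative. Of the 10 places in the order of control levels, 4 held without division by length, and 6 to 10 when a control library was left out.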

Other observations

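Some members were low in the same replicate number across groups, whose meaning the labels do not give. How often other genes did so was not counted, so these patterns have no background beside them. KLF5 was lowest in replicate 5 in all 4 groups, with a mean of 4.61 CPM there against 8.69 to 9.60 CPM in the other numbers. KLF4, the other factor tied to mural cell state, was lowest in replicate 5 in 3 of 4 groups (8.60 CPM) and highest in replicate 2 in 3 of 4 (16.9 CPM). KLF3 was also lowest in replicate 5 in 3 of 4 groups, at a mean of 32.5 CPM, and highest in replicate 4 in 3 of 4, at 45.9 CPM. KLF11 was lowest in replicate 1 in 3 of 4 groups, though highest there with eNAMPT alone, and was highest in replicate 2 in the other 3. KLF7 was lowest in replicate 1 in 3 of 4 groups, at a mean of 44.6 CPM. KLF13 was lowest in replicate 4 in 3 of 4 groups (44.4 CPM) and highest in replicate 2 in 3 of 4 (55.1 CPM). KLF9 in control ran from 3.47 to 18.4 CPM, the widest relative range of any member in control.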
